A study of Mus musculus with 4 samples.

Results

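Of the collagen genes in mouse embryonic stem cells, 9 appeared in the authors' tables of transcripts that changed when the long non-coding RNA Mrhl was targeted, and they were taken by their symbols (Col, a number, a, a number). The tables held 1131 symbols with a single direction, so the collagen genes made up a small part of them. The compared groups were cells transfected with sh-Mrhl, an shRNA against Mrhl, and cells transfected with a scrambled shRNA, with 2 libraries each, harvested 48 hours after transient transfection. All libraries came from E14tg2a, an established embryonic stem cell line of the 129/Ola strain, grown on gelatine without a stated feeder layer. A single shRNA against Mrhl was used, so effects of its sequence on other transcripts cannot be told apart from effects of Mrhl, and nothing in the labels says whether libraries of a group came from separate cultures. Each gene had 1 signed fold-change value for sh-Mrhl against scrambled, negative where it was lower in sh-Mrhl. The tables give no values per library, p-values or expression levels, so the error and depth behind each value are not known here. The scale (log2 or signed linear fold) is not stated. The members were chosen because they were listed, so their direction and size are a description of the tables and carry no test. Of 8 embryonic stem cell markers checked by name, such as Pou5f1 and Nanog, 0 were listed, and since the tables hold only listed genes the cell type could not be checked against its markers.

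Collagens are secreted or membrane-bound matrix proteins built from chains that carry a repeating Gly-X-Y triplet, where the small glycine lets the chains of a trimer wind into a helix. Fibrillar collagens assemble into the tensile fibrils of connective tissue, and fibril-associated collagens have interrupted helices and decorate the surface of those fibrils. Multiplexins lie in basement membrane zones, transmembrane collagens such as type XVII anchor epithelial cells, and type VI chains form beaded microfibrils around cells. Embryonic stem cells in culture make basement membrane components, whereas most fibril-forming chains are known from mesenchymal cells.

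The repeat that defines the family is printed here for each listed gene, because it is what makes them collagens and its length and continuity differ between the chains. Each line gives the first 45 bases of the longest uninterrupted Gly-X-Y run in the longest complete coding sequence of the gene in GENCODE M21 on GRCm38 (mm10), read 5′ to 3′ on the coding strand, with glycine codons (GGN) in capitals.
Col24a1: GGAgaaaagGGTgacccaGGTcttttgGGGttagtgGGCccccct
Col3a1: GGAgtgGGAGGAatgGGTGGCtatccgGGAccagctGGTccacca
Col22a1: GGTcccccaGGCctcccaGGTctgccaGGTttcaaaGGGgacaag
Col12a1: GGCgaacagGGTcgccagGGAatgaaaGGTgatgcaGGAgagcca
Col15a1: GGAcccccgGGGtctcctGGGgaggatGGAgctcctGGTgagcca
Col17a1: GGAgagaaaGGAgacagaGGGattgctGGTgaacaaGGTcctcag
Col6a4: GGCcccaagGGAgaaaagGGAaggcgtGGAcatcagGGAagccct
Col6a6: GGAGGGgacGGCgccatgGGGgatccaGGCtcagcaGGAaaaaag
Col26a1: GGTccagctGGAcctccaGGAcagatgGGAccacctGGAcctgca

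All 9 stretches hold a glycine codon at each first position of a triplet, as the choice of stretch requires, and the other positions differ between chains. Of the 10 other codons in each stretch, those for proline numbered 6 in Col26a1 and 5 in Col15a1, against 1 each in Col12a1, Col17a1 and Col6a6. Col3a1 carries 2 further glycine codons and Col6a6 carries 1 at these other positions. The strain sequenced was 129/Ola, while the reference is C57BL/6J, and bases that differ between these strains were not examined.

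By direction, 8 of the 9 collagen genes were listed as lower in sh-Mrhl and 1 as higher, beside 63.7% lower and 36.3% higher among all listed symbols with a single direction. The genome annotation holds 44 collagen genes of this naming, all protein coding, and 9 of them, or 20.5%, were listed in either direction. Over all annotated protein-coding symbols, 2.50% were listed, 1.57% as lower and 0.930% as higher. The members are known to be in the tables by how they were chosen, so nothing is read from these shares. The remaining 35 collagen genes have no value here, and whether they changed is not known from the tables.

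**Figure D1:**
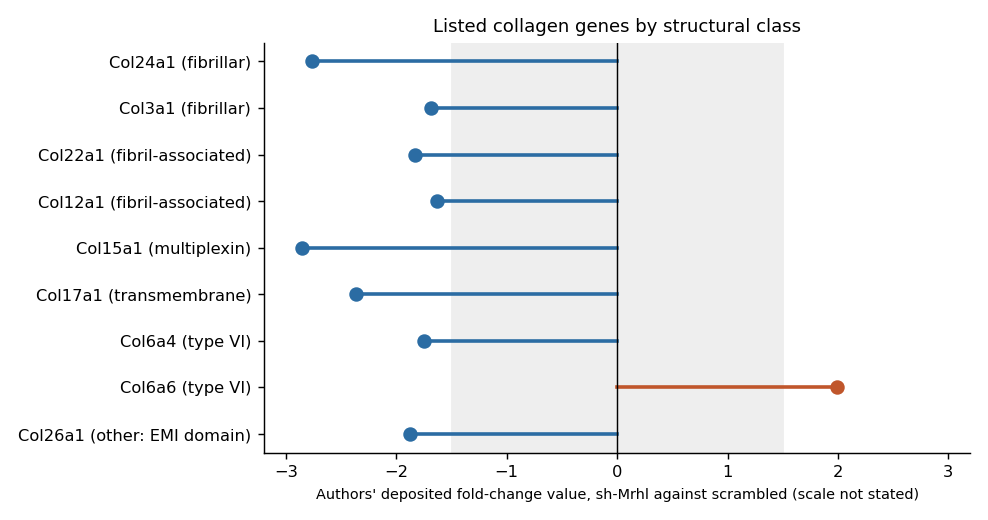
The authors' deposited fold-change value of each listed collagen gene is plotted for sh-Mrhl against scrambled, grouped by structural class from top to bottom, with the scale as deposited and not stated. The grey band marks -1.5 to 1.5, where neither table holds a value; 8 genes lie on the negative side and Col6a6 alone on the positive side, at 1.99.

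Among fibrillar collagens, 2 of 11 annotated genes were listed, both as lower. Col24a1, a fibrillar chain known from developing bone and cornea, stood at -2.76 in the authors' deposited table. The value of Col3a1, the homotrimeric fibril chain of skin, vessel wall and other extensible tissue, was -1.69 in the authors' deposited table. Col24a1 was thus farther from zero than Col3a1 by 1.08 on the deposited scale. With 1 value for each gene and no error given, differences in size within or between classes were not tested. Col24a1 lies on chromosome 3 from 145292472 to 145552011 on the plus strand and Col3a1 on chromosome 1 from 45311538 to 45349706 on the plus strand (mm10). Not listed were both chains of type I collagen, Col1a1 and Col1a2, with which type III fibrils usually occur, and Col2a1, Col5a1, Col5a2, Col5a3, Col11a1, Col11a2 and Col27a1. The longest run of triplets is nearly the same in Col24a1, with 216, and in Col27a1, with 217. Col5a2 lies 24614 bp from Col3a1 on the opposite strand, so the listed and the unlisted fibrillar gene are immediate collagen neighbours.

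The fibril-associated class had 2 of 9 annotated genes in the tables, both lower. Col22a1, a chain of tissue junctions such as that between muscle and tendon, was at -1.83 in the authors' deposited table, on chromosome 15 from 71795795 to 72034227. For Col12a1, which sits on type I fibrils and is known from tendon, ligament and other dense tissue, the authors' deposited table gave -1.63, the value nearest to zero among the 9. Col12a1 lies on chromosome 9 from 79598991 to 79718831. These genes differed by 0.20 on the deposited scale, less than the fibrillar pair did. The class members Col9a1, Col9a2, Col9a3, Col14a1, Col16a1, Col19a1 and Col20a1 were not listed. Col14a1, a close relative of type XII, has the same longest run of triplets as Col12a1, 32.

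Col15a1 had the most negative value of the 9, at -2.85 in the authors' deposited table, and it represents the multiplexins. Type XV collagen bridges basement membranes to the underlying matrix, and its C-terminal part is related to endostatin. The gene lies on chromosome 4 from 47208161 to 47313167 on the plus strand. Col18a1, the other of the 2 annotated multiplexin genes and the source of endostatin itself, was not listed. Col17a1, the hemidesmosomal collagen of basal epithelial cells, was at -2.36 in the authors' deposited table and lies on chromosome 19 from 47646344 to 47692094. It was the 1 listed gene of 4 transmembrane collagens, the others being Col13a1, Col23a1 and Col25a1. Col26a1, a short secreted chain with an EMI domain first described in testis and ovary, was at -1.87 in the authors' deposited table, on chromosome 5 from 136741759 to 136883209. Neither Col7a1, the anchoring fibril chain, nor Col28a1, both outside the classes above, was listed.

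Among the classes with 2 listed genes, type VI collagen was the one with members in both directions. Col6a4 was at -1.75 and Col6a6 at 1.99 in the authors' deposited tables. Both encode long chains related to the alpha 3 chain of type VI, and no other type VI chain was listed, neither the ubiquitous Col6a1, Col6a2 and Col6a3 nor Col6a5. Col6a4, Col6a5 and Col6a6 form a tandem array on the minus strand of chromosome 9. Col6a6 spans 105687809 to 105828160, Col6a5 105856078 to 105960643 and Col6a4 105989454 to 106096783, with gaps of 27917 bp and 28810 bp between neighbours. The genes at the ends of the array, 161293 bp apart, were therefore listed in opposite directions, and the gene between them was in neither table. Beyond Col6a4, the antisense gene D030055H07Rik, 51903 bp away on the plus strand, was listed as higher at 1.95 in the authors' deposited table.

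**Figure D2:**
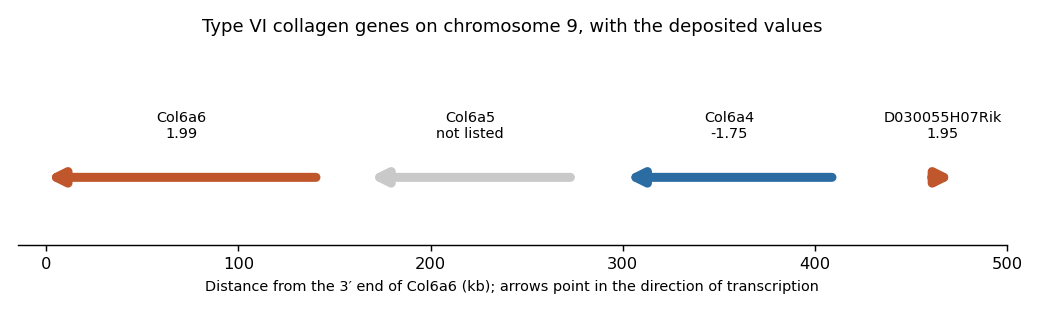
The tandem type VI collagen genes are drawn to scale along chromosome 9, with distance in kb from the 3′ end of Col6a6 and the authors' deposited value over each gene; arrows give the direction of transcription. Col6a6 (1.99) and Col6a4 (-1.75) flank Col6a5, which was not listed.

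How far reads could be assigned to these chains was examined in 1 reference transcript of each gene, the one with the longest complete coding sequence. Aligned over their coding sequences, Col6a4 and Col6a6 were identical at 58.9% of aligned bases, Col6a4 and Col6a5 at 60.3%, and Col6a5 and Col6a6 at 66.0%. Of the 8732 different 50-base words in that transcript of Col6a6, 339, or 3.88%, also occurred in a transcript of another gene, and 322 of them in Col6a5. Col6a4 shared 135 of 7322 such words, 79 of them with the overlapping gene model Gm36993 on the opposite strand. Col3a1 shared 92 of 5515 words, each with Gm47302, a microRNA model inside its locus, and Col22a1 shared 16 of 8760. The examined transcripts of Col12a1, Col15a1, Col17a1, Col24a1 and Col26a1 shared 0 words with transcripts of other genes. Further transcripts of the 9 genes were not examined. Most of each examined transcript was thus distinct from transcripts of other genes at this word length, the read length and the strand setting of the counting being not given in the sources used here. The part of shared sequence in the values of Col6a6 and Col6a4 was not tested.

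The regions before the start sites of this pair are shown because these neighbouring genes were listed in opposite directions. They are the 250 bases upstream of the RefSeq start on GRCm38.p6, chr9:106096692-106096941 for Col6a4 and chr9:105828086-105828335 for Col6a6. Both are on the minus strand and written 5′ to 3′ in the direction of transcription. In GENCODE M21 the genes begin at 106096783 and 105828160, inside these windows. Part of each window therefore lies within the GENCODE gene, and distances of motifs are counted from the RefSeq start. Capitals mark 3 motifs, searched on both strands: the CCAAT box, spelled CCAAT, the GC box, spelled GGGCGG, and the TATA box, spelled TATAAA. No marked motifs overlap.
Col6a4: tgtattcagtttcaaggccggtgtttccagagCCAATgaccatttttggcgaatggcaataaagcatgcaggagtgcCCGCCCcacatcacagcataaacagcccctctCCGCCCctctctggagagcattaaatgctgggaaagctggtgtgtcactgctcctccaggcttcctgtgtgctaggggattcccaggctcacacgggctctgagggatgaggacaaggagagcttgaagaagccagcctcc
Col6a6: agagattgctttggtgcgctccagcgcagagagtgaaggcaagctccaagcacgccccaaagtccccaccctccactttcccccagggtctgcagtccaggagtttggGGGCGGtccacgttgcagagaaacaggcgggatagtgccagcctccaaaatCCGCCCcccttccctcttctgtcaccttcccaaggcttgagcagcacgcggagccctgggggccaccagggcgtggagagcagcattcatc

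Both windows hold the GC box letters GGGCGG in 2 places, at 173 and 141 bases before the start in Col6a4 and at 142 and 91 bases in Col6a6, and Col6a4 also holds CCAAT at 218 bases. GGGCGG was in 32.7% and CCAAT in 33.8% of the 32851 promoter windows of the same length. The window of Col6a6 had 62.4% G and C with 10 CpG pairs and that of Col6a4 55.2% with 5, against medians of 52.4% and 6 over all windows. RefSeq windows were matched for 6 of the 9 genes, those of Col15a1, Col17a1, Col24a1 and Col3a1 besides the type VI pair. TATAAA was found 117 bases before the RefSeq start in Col3a1 and at 140 and 91 bases in Col17a1. It was in 12.4% of all windows, and its place in the window was not used in this count. The GENCODE start of Col17a1 also lies inside its window. In the Col3a1 window, 35.2% of bases were G or C and 0 CpG pairs were present. The windows of Col15a1 and Col24a1 held none of the 3 motifs. For Col15a1 the window ends at 47208011, before the GENCODE start at 47208161, and the bases between them were not searched. These matches describe letters in a window and say nothing about factors bound there.

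Placed among all listed symbols, the lower collagen genes were spread over much of the lower table. Col15a1 ranked 67 and Col24a1 ranked 83 among the 721 symbols listed as lower, ordered by absolute value. For Col17a1 the rank was 175. The remaining ranks were 391 for Col26a1, 428 for Col22a1, 496 for Col6a4, 563 for Col3a1 and 631 for Col12a1. In the higher table Col6a6 ranked 148 of 410 symbols, and 63.9% of that table had a smaller value. The median over the 8 lower collagen genes was -1.85, and that over all lower symbols was -1.91, both from the authors' deposited table. Values of at least 2 in absolute size were reached by 3 of the 8 lower collagen genes and by 44.4% of all lower symbols. As a lower edge, the smallest absolute values in the authors' deposited tables were 1.50027 (1700020L24Rik, lower) and 1.5032 (Wfdc1, higher). The collagen gene nearest to this edge was Col12a1, at -1.63 in the authors' deposited table, and 12.5% of the lower symbols had a smaller absolute value.

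**Figure D3:**
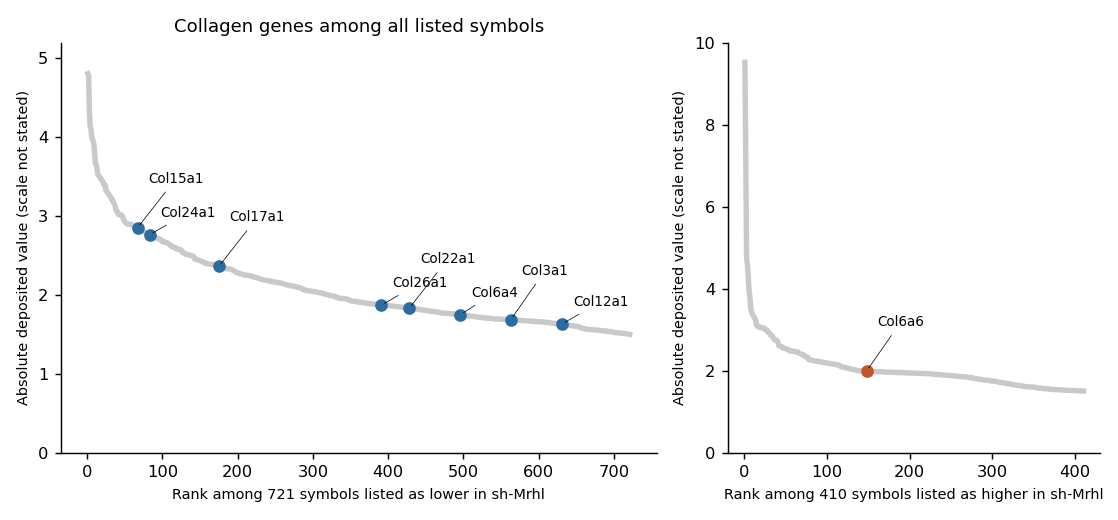
Absolute deposited values are plotted against rank for the 721 symbols listed as lower (left) and the 410 listed as higher (right) in sh-Mrhl, as grey lines, with collagen genes as points; the scale of the values is not stated. The 8 lower genes lie between rank 67 (Col15a1) and rank 631 (Col12a1) of the lower curve, and Col6a6 sits at rank 148 of the higher curve.

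Annotated collagen genes belong to 27 types, of which 8 had a listed gene. Of the 9 network-forming genes, namely the 6 genes of type IV, the sheet-forming core of basement membranes, with Col8a1, Col8a2 and Col10a1, 0 were listed. Beside this, 2.50% of all annotated protein-coding symbols and 20.5% of the annotated collagen genes were listed. Whether the network-forming class differs from these shares was not tested. Of those 8 types, 7 have a single annotated chain, type VI being the exception. Single-chain types make up 20 of the 27 types, so this feature is common in the family.

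**Figure D4:**
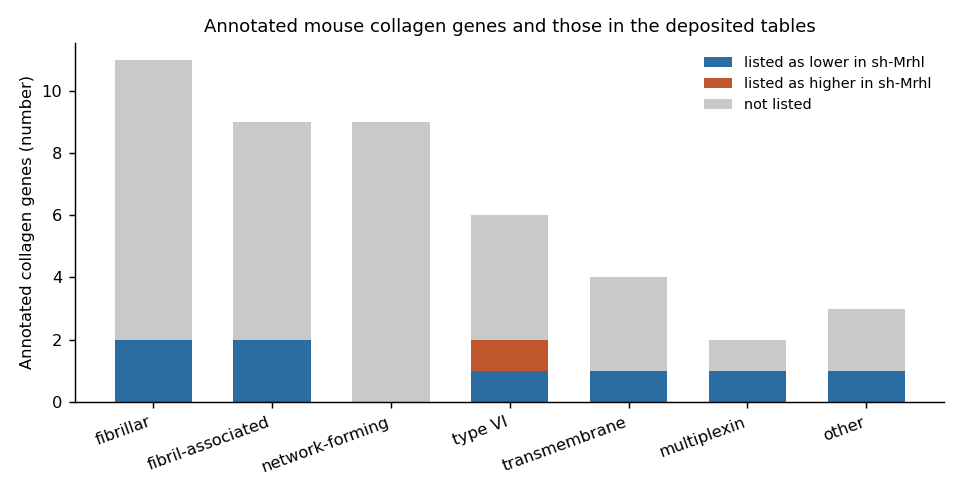
Bars count the annotated collagen genes of each structural class, split into those listed as lower in sh-Mrhl, those listed as higher and those not listed. The fibrillar and fibril-associated classes each hold 2 lower genes, type VI holds 1 lower and 1 higher, and the network-forming class holds no listed gene.

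In their coding sequences the 9 genes covered nearly the whole range of the family. Col3a1 has the longest run of the family, 344 triplets without interruption, and 73.2% of its 1464 codons lie in runs of at least 5 triplets. Col24a1 has a run of 216 triplets. The next in length are Col22a1 with 113 and Col17a1 with 56, and Col17a1 is broken into 13 separate stretches. Shorter runs are found in Col6a4 with 45, Col6a6 with 42, Col12a1 with 32 and Col15a1 with 30. Col26a1 has 23 triplets, the shortest longest run among the 44 genes, in a coding sequence of 440 codons. Col12a1 is the largest, with 3065 codons, and 7.63% of them lie in such stretches, all near its C-terminal end. The median share of codons in stretches was 23.9% over the 9 listed genes and 59.0% over the 35 collagen genes not listed, with ranges of 7.63% to 73.2% and 9.75% to 77.2%, so the ranges overlap over most of their extent.

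**Figure D5:**
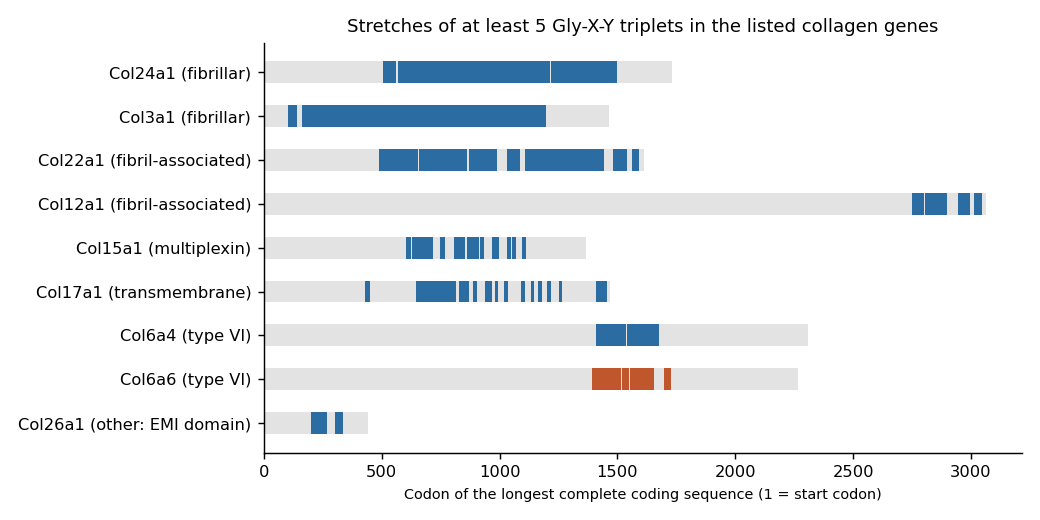
Each bar is the longest complete coding sequence of a listed collagen gene in codons, and coloured blocks are stretches of at least 5 uninterrupted Gly-X-Y triplets, blue for genes listed as lower and orange for Col6a6, listed as higher in sh-Mrhl. Col3a1 and Col24a1 carry long continuous blocks, Col15a1 and Col17a1 many short ones, and Col12a1 a small block at its end.

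Exon sizes also differed among the 9 genes. Exons of 54 bp, the size known for fibrillar helices, made up 33 of 60 coding exons in Col24a1, 24 of 51 in Col3a1 and 28 of 63 in Col22a1. Unlisted fibrillar genes hold them too, such as Col27a1 with 33 of 61 and Col1a2 with 24 of 52, so they do not mark the listed genes. Col17a1, Col6a4 and Col6a6 have 3 such exons each, Col12a1 has 4, Col15a1 has 1 and Col26a1 has 0 of 13. The 9 genes are long, with a median merged exon length of 8526 bp against 3494 bp over the listed protein-coding symbols, and all 9 exceed that of the listed symbols. Collagen genes that were not listed are long as well, with a median of 7013 bp. Of the 9 genes, 3 lie on chromosome 9, which held 38 of the 721 lower and 14 of the 410 higher symbols. Among these 3, Col6a4 and Col6a6 belong to the tandem array. The unlisted collagen genes Col5a3, Col6a5 and Col7a1 lie on chromosome 9 as well.

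Among listed genes within 1 Mb, no common direction appeared beside the collagen genes. The nearest to Col15a1 was the processed pseudogene Gm12424, 106682 bp away, at 1.97 in the authors' deposited table. Near Col17a1 the glutathione transferase gene Gsto2 was at 1.54 in the authors' deposited table. Mcoln2, a cation channel gene of endolysosomes 597821 bp from Col24a1, was at -3.39, and the pseudogene Gm5526 near Col3a1 at -1.71 in the authors' deposited table. The nearest listed gene to Col26a1, the gene model A430110C17Rik, was at 1.88 in the authors' deposited table. Col12a1 and Col22a1 had no listed neighbour within this distance. Of the 11 annotated genes that overlap a listed collagen gene, such as Gm16308 antisense to Col22a1 and Gm12426 antisense to Col15a1, 0 were listed. None of these 11 is annotated as protein coding. The listed share of all such genes was not computed, so nothing is read from this count.

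Genes that make, cut or bind collagen were examined by name as the surroundings of the chains. Together the lists of partners held 255 annotated genes outside the family, of which 7, or 2.75%, were listed, all as lower. Over all annotated protein-coding symbols, 2.50% were listed in either direction and 1.57% as lower. Among all listed symbols with a single direction, 63.7% were lower. Whether the partner genes differ from these shares was not tested. None of the 39 genes of collagen hydroxylation, folding, export, trimming and crosslinking was listed, a group that includes Serpinh1, the collagen chaperone, and Lox, the crosslinking oxidase. The 37 collagen-cutting proteases and their inhibitors, such as Mmp2 and Timp1, also had 0 listed genes. So did the 15 hemidesmosome genes, among them Itga6 and Itgb4, the 12 EMI-domain genes and the 38 genes of other proteins with collagen-like stretches.

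Of 21 collagen receptor genes, 3 were listed as lower. Lair1, an inhibitory immune receptor that binds collagen, was at -2.87 in the authors' deposited table. Adgrg6, an adhesion G protein-coupled receptor that binds type IV collagen and is needed for myelination by Schwann cells, was at -2.16 in the authors' deposited table. Itga2, the collagen-binding integrin alpha 2 chain, was at -1.54 in the authors' deposited table, close to the lower edge, and its partner chain gene Itgb1 was not listed. The 30 basement membrane partners had Lamc3, a laminin gamma chain gene, at -2.78, and the 44 fibril-binding matrix genes had Tnr, which encodes tenascin-R, at -2.97 and Matn4, a matrilin, at -1.82, in the authors' deposited table. Of 26 regulators of collagen transcription 1 was in the tables, the bone regulator gene Runx2, which the authors' deposited table gives at -2.51. Shares of 14.3%, 3.33%, 4.55% and 3.85% of these lists were in the tables, each resting on 1 to 3 genes, all lower. Beside them, 1.57% of all annotated protein-coding symbols were listed as lower, and no difference from that share was tested.

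Markers of other cells that make these collagens were looked up by name. Of 12 fibroblast and feeder markers, 11 endoderm markers and 4 endothelial markers, 0 were listed. Of 4 epidermal markers Krt15 was lower, at -2.78 in the authors' deposited table. Over all annotated protein-coding symbols 2.50% were listed, so nothing about these cell types is read from the counts. Levels of unlisted markers were not analysed here, so the part of a small number of other cells in the values of Col3a1, Col15a1 or Col17a1 was not tested. Fewer cells of a type and less RNA per cell cannot be told apart in these bulk libraries.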

How the data were processed

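Trizol extracts of total RNA were DNase-treated and sequenced after an Illumina TruSeq RNA preparation, per the labels' protocols. TopHat2, Cuffdiff and mm10 are named in the submitters' processing notes, while the sources used here give no version, annotation, test or threshold. The deposited fold changes were handled as a score, since the file headers do not state their scale, and were not converted. Repeated symbols were reduced to 1, and 1 symbol in both tables was left out. With no values per library, depth is unknown and no test was run; the planned test per library could not be made.

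The members and lists were chosen with earlier results of these data known. Named genes were the 9 collagen genes, the listed genes of each partner list (at most 4), the nearest listed neighbour within 1 Mb and the values at the edge of each table. Positions, exons and coding sequences came from GENCODE M21 and promoter windows from RefSeq on GRCm38.p6. Run finding was tested on simulated codons with a planted run and no other glycine codons. Glycine at other positions and interrupted runs were not covered by it. Coding sequences were aligned globally with Biopython 1.88; Python 3.11.15, pandas 2.3.3, numpy 2.4.6 and matplotlib 3.10.9 were used.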

Additional observations from a re-analysis of the deposited data

How the results depend on the processing

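With absolute values of at least 2, 3 collagen genes were lower and 0 higher, so 3 of the 44 annotated genes were listed, and their median deposited value was -2.76 against -1.83 over all 9. Without values from 1.9 to under 2, Col6a6 dropped out, leaving 8 lower and 0 higher genes with a median of -1.85. The median moved by less than 0.1 when every row was counted, without type VI genes (-1.87) and without Col15a1 (-1.79). All 44 annotated genes are protein coding, so keeping that type changed nothing. Allowing 1 triplet without glycine lengthened the longest run in Col15a1 to 38 and in Col3a1 to 346 triplets and in none of the other 7 genes. No paired analysis was possible because only 1 deposited value exists for each gene, and for that reason no replicate could be left out. What depth limits cannot be stated, since it is unknown.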
